A study of Homo sapiens with 12 samples.

Results

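Expression of 10 Polycomb and DNA methylation genes was compared between senescent EndoC-βH3 cells and their non-senescent controls. The genes were EZH2, EZH1, SUZ12 and EED of Polycomb repressive complex 2, BMI1 of Polycomb repressive complex 1, the DNA methyltransferases DNMT1, DNMT3A and DNMT3B, the cofactor UHRF1, and the demethylating enzyme TET1. They were picked by gene name from the 35337 rows of the deposited expression table, not by a rule on their values. Earlier results of these data were known when they were chosen. All 10 were found, and all 10 averaged 5 or more normalised read counts over the 12 samples, the limit for testing.

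EndoC-βH3 is an established human beta-like cell line made from fetal pancreas. Growth of the line depends on a pair of transgenes. One is hTERT, the catalytic subunit of telomerase, and the other is SV40 Large T-antigen, a viral protein that blocks the tumour suppressors Rb and p53. All samples came from this line, with the genotype given as wild type and with a CreER recombinase that 4-hydroxy-tamoxifen (4-OHT) activates to excise both transgenes. Non-senescent cells were the control samples, without 4-OHT (n = 6), and senescent cells had received 4-OHT for 3 weeks (n = 6). Sample names carried a letter, A (2 per group) or B (4 per group), which the sources used here do not define and which was read as the batch. The labels do not say whether samples of one batch came from separate cultures, so p-values measure only the spread between these samples, which may be technical. Untreated cells were the only control, so effects of 4-OHT itself and of transgene removal cannot be told apart.

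Polycomb complexes keep developmental genes silent by modifying histones. In complex 2, EZH2 or EZH1 methylates lysine 27 of histone H3 and needs SUZ12 and EED to do so, and complex 1, to which BMI1 belongs, ubiquitinates histone H2A and compacts chromatin. In fibroblasts and in mouse beta cells, loss of EZH2 and BMI1 from the CDKN2A locus, which encodes p16, is a known feature of senescence and ageing. DNA methylation is written on new sites by DNMT3A and DNMT3B, copied after replication by DNMT1, which UHRF1 guides to half-methylated DNA, and removed through oxidation by TET enzymes.

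Several of these genes are textbook targets of E2F factors, which Rb holds in check, so the promoters were searched for letters bound by E2F. Windows from 250 bases before to 50 bases after each RefSeq start site (GRCh38.p14) were searched on both strands for TTTCCCGC, TTTGGCGC, TTTCGCGC and TTTGCCGC. At least 1 of these stood in a window of 5 of the 10 genes (50%) and of 3.99% of 27305 genes with a window. The share was 6.46% of the 10388 tested genes with a window, and 12.7% of the 1255 genes with a window that were lower in senescent cells. These shares count genes with a match in any window, and the 10 genes had 21 windows, against 35116 for the 27305 genes. Of all windows 3.31% held a match. The median of the highest CpG count per gene was 35 in the 10 genes, 28 in tested genes and 16 in all genes with a window. The shares were not adjusted for the number of windows or for CpG content. Stretches around the matches are shown 5′ to 3′ on the strand of the gene, with the matching letters in capitals.
EZH2, chr7:148884272-148884326, minus strand: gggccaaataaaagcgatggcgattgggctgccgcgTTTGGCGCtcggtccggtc
EZH1, chr17:42745112-42745191, minus strand: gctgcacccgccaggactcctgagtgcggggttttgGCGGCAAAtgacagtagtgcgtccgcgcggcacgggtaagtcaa
SUZ12, chr17:31936782-31936861, plus strand: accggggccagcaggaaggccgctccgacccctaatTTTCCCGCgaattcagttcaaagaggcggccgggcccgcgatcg
DNMT1, chr19:10194934-10194991, minus strand: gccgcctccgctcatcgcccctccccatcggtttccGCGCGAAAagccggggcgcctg
UHRF1, chr19:4909451-4909520, plus strand: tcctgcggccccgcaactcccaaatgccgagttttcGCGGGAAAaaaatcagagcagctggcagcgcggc
UHRF1, second start site, chr19:4909948-4910027, plus strand: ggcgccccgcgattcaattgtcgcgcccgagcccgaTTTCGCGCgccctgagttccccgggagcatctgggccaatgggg

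The match began 1 base after the start site in EZH2 and 14 bases before the first of the UHRF1 start sites, and it spanned the start site in DNMT1. In EZH1 it lay 115 to 108 bases before the start and in SUZ12 189 to 182 bases before it. The other 5 genes, EED, BMI1, DNMT3A, DNMT3B and TET1, did not have these letters in their windows. Matches and responses, given below, did not go together in every gene. EZH2, SUZ12, DNMT1 and UHRF1 had a match and were lower in senescent cells, but EZH1 had a match and did not pass the limits. EED and TET1 had no match and were lower. Windows were also searched on both strands for the cell-cycle letters TTTGAA and TTCGAA, and at least 1 of these stood in a window of 20% of the 10 genes, against 19.5% of all genes with a window. TTTGAA was in a window of SUZ12 and of DNMT3A, and TTCGAA was in no window of the 10 genes. The windows of the 10 genes also varied in CpG content, from 3 CpG in the DNMT3B window to 65 in a BMI1 window. A match describes the sequence and does not show that a factor binds there.

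RNA was measured by CEL-seq2, which reads the 3′ end of poly(A) transcripts, and libraries held 4672924 to 17106776 reads (8873569 or more in batch A, 7063264 or fewer in batch B). The proliferation marker MKI67 was lower in senescent cells (log2 fold change −2.83 ± 0.14 SE) and the p53 target CDKN1A was higher (3.92 ± 0.35 SE). Reads of TERT cannot be assigned to the transgene or the chromosomal gene, and its log2 fold change was 0.28 (limma, adjusted p = 0.107). Of the 10 beta cell markers, including INS, 4 were higher and 1 was lower in senescent cells. Among markers of other cells, 1 of 4 alpha cell genes (GCG) and both delta cell genes (SST and HHEX) were lower. The duct gene KRT19 and the immune gene PTPRC were lower too, and 1 alpha cell gene (TTR) and the acinar gene CPA1 were higher. PDGFRB, VWF and CD3E had 0 reads in every library, but other genes of their stromal, endothelial and immune lists had reads. Of those, COL1A1 (12.5 normalised read counts in non-senescent against 11.1 in senescent samples), PECAM1 (8.75 against 7.49) and CD68 (23.3 against 25.4) were tested and not called. Of 13847 tested genes, 11.8% were lower and 11.6% were higher in senescent cells, where a call needed a fold change over 1.5 and an adjusted p under 0.1. Thus 49.6% of these calls were higher, against 36.9% when every library was scaled to the same total.

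Senescent cells had less RNA of 6 of the 10 genes, namely UHRF1, EZH2, DNMT1, EED, TET1 and SUZ12. By limma 0 of the 10 were higher, as by edgeR and DESeq2, and 1, BMI1, was higher at an unadjusted p under 0.05. The median log2 fold change of the 10 genes was −0.61, against 0.01 over all tested genes, and the share called lower was 60% against the 11.8% of all tested genes. In 4 of the 10 genes (EZH2, SUZ12, DNMT1 and UHRF1) every senescent sample was below every non-senescent sample within batch A and within batch B, a pattern found in 11.9% of tested genes. All 6 markers of the proliferation list fell as well, from 754.9 to 884.2 ppm of the reads in non-senescent samples to 122.2 to 151.2 in senescent samples, and their part in the result was not tested. In bulk RNA, fewer cells that express a gene and less of its RNA per cell cannot be told apart.

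**Figure D1:**
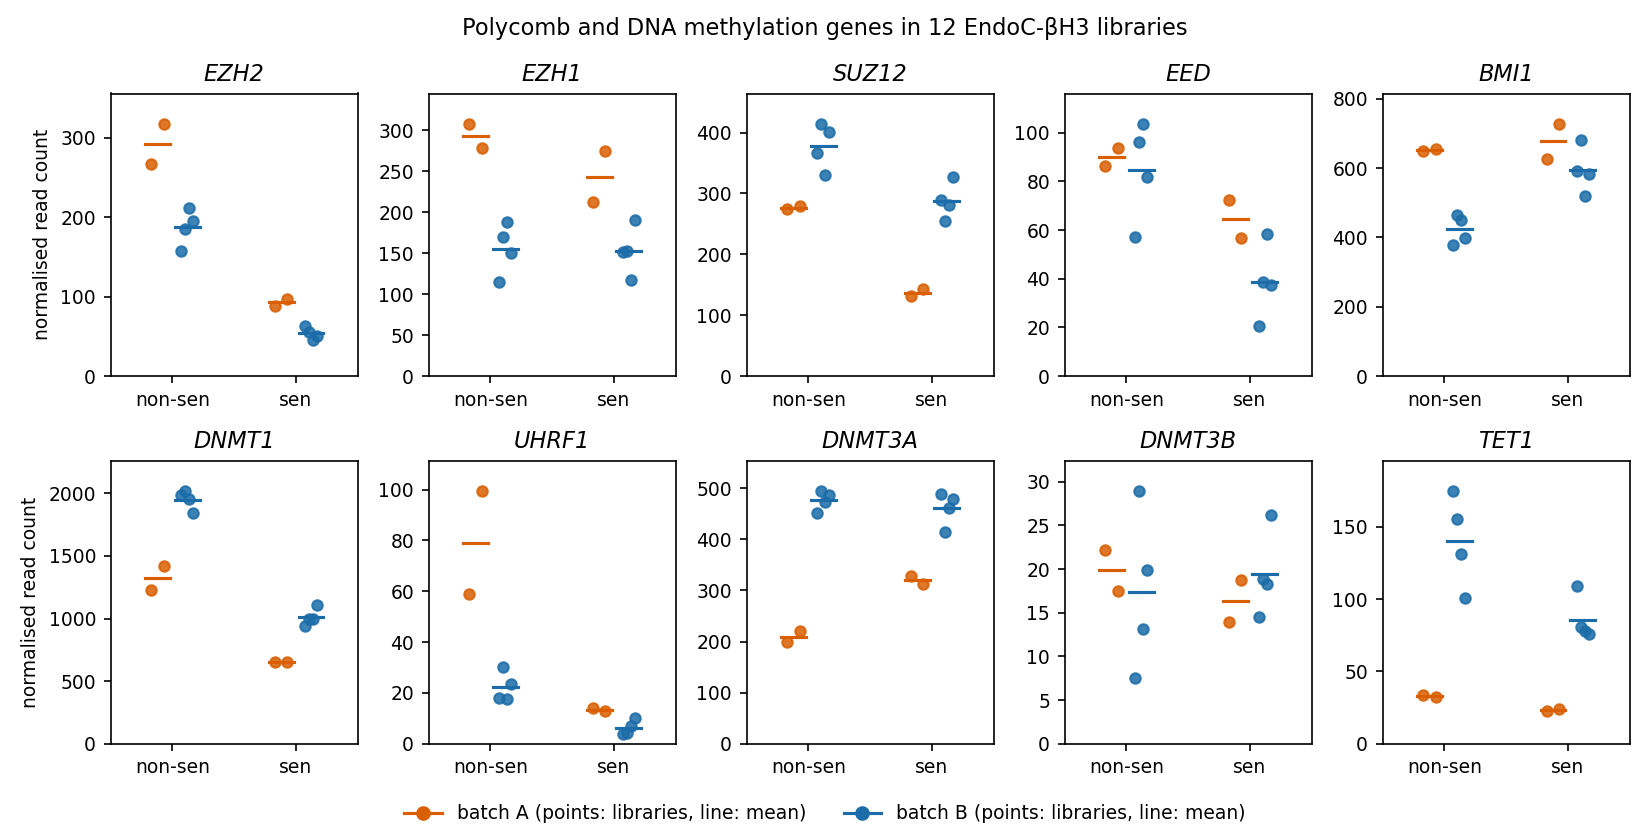
Level of each of the 10 genes (y axis, normalised read count, starting at 0) in 6 non-senescent and 6 senescent samples, with each point 1 library and each line the mean of a batch (orange, batch A; blue, batch B). For EZH2, SUZ12, DNMT1 and UHRF1 the senescent points lie below the non-senescent points of the same batch. Points of DNMT3B overlap in each batch, and those of EZH1 overlap in batch B only.

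EZH2, the H3K27 methyltransferase of dividing cells, fell 3.33-fold. Its gene spans chr7:148807257-148884321 on the minus strand (GRCh38, GENCODE v44), and the match in its promoter window is the first stretch printed above. Normalised read counts of EZH2 ran from 158.1 over a median of 203.5 to 317.9 in non-senescent samples and from 45.8 over 59.3 to 97.2 in senescent samples. No senescent sample reached the lowest non-senescent one, also across batches. The log2 fold change came to −1.74 ± 0.12 SE (limma, adjusted p = 5.21e-09), and the batches alone gave −1.64 (A) and −1.78 (B). These values rest on 40 to 480 reads per library.

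EZH1 (chr17:42700275-42745049, minus strand) encodes the alternative methyltransferase, which prevails in cells that do not divide. EZH1 counted 201.6 ± 75.8 (SD, n = 6) in non-senescent and 183.1 ± 55.5 (SD, n = 6) in senescent samples. In batch A its senescent samples (212.3 and 274.2) were below the non-senescent ones (307.9 and 278.9), in batch B the groups overlapped, and the log2 fold change came to −0.11 ± 0.14 SE (limma, adjusted p = 0.585). The level of EZH1 depended more on the batch, being lower in batch B by 0.80 on the log2 scale.

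The balance of EZH2 to EZH1 reads differed between the groups in every sample. The log2 ratio of EZH2 to EZH1 ran from −0.21 to 0.46 in non-senescent samples and from −1.88 to −1.25 in senescent samples. The groups did not overlap, and the mean ratio moved on the log2 scale by −1.36 (batch A) and −1.76 (batch B). Reads count 3′ ends and are not divided by gene length, and the ratio is used here only to compare samples.

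**Figure D2:**
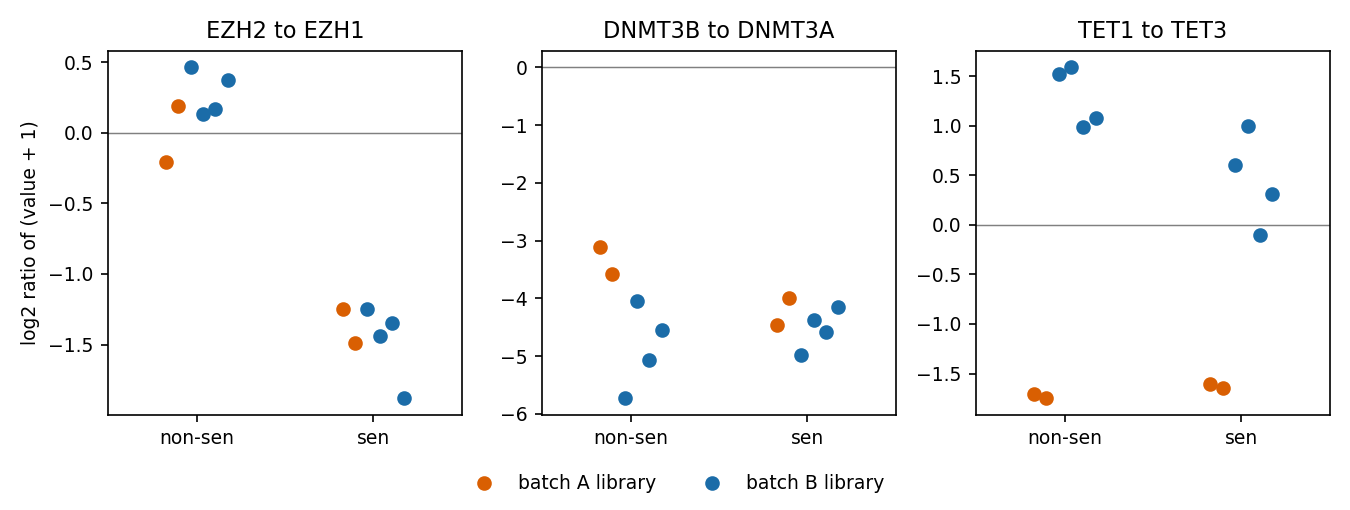
Log2 ratio of normalised read counts (each plus 1) of EZH2 to EZH1, DNMT3B to DNMT3A and TET1 to TET3 (y axes) in non-senescent and senescent samples, with each point 1 library coloured by batch. The ratio of EZH2 to EZH1 separates the groups, with senescent samples at −1.25 or lower, whereas the other ratios overlap and that of TET1 to TET3 divides by batch.

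SUZ12 and EED, the other core subunits of complex 2, also fell, but by less than EZH2. SUZ12 (chr17:31937007-32001038) counted 274.0 to 278.9 in non-senescent and 131.5 to 143.1 in senescent samples of batch A, and 330.2 to 414.4 against 255.0 to 326.3 in batch B. Senescent samples were thus lower within each batch, although senescent samples of batch B overlapped non-senescent samples of batch A. The log2 fold change of SUZ12 was −0.60 ± 0.11 SE (limma, adjusted p = 0.000492), just past the fold limit, and the batches alone gave −1.01 (A) and −0.39 (B). The difference between the batches did not pass the test (limma, adjusted p = 0.104). SUZ12 fell under the fold limit in batch B alone and when 1 of 5 libraries was left out. Its log2 fold change was −0.55 without the non-senescent library A1, −0.54 without A2 of that group, and −0.53, −0.56 and −0.58 without the senescent libraries A1, A2 and B2.

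EED (chr11:86201212-86278813), which binds methylated H3K27, counted from 57.2 over a median of 90.0 to 103.7 in non-senescent samples. In senescent samples it counted from 20.6 over 47.8 to 72.3, so that the groups overlapped, and the non-senescent library B1 was the lowest of its group. Its log2 fold change came to −0.94 ± 0.23 SE (limma, adjusted p = 0.00359). The fall was −1.16 in batch B, where 1 senescent and 1 non-senescent sample overlapped. In batch A alone EED was lower by 0.48 on the log2 scale and did not pass the fold limit.

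BMI1 (chr10:22321099-22331484), a stimulating subunit of the H2A ubiquitin ligase, did not pass the fold limit in either direction. BMI1 counted 499.6 ± 122.6 (SD, n = 6) in non-senescent and 622.0 ± 74.1 (SD, n = 6) in senescent samples. In batch B its senescent samples (520.8 to 682.2) stood above the non-senescent ones (379.5 to 463.9), whereas in batch A the senescent samples (625.8 and 727.7) lay on either side of the non-senescent ones (648.6 and 656.4). The log2 fold change came to 0.34 ± 0.10 SE, a 1.27-fold difference (limma, adjusted p = 0.0100).

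DNMT1 and UHRF1, the pair that copies DNA methylation at replication, were both lower in senescent cells. DNMT1 (chr19:10133342-10231286, minus strand) had the highest read counts of the 10 genes. It counted from 1227 over a median of 1900 to 2017 in non-senescent samples and from 655.3 over 969.8 to 1107 in senescent samples. Even the highest senescent sample was below the lowest non-senescent one. The log2 fold change of DNMT1 was −0.97 ± 0.06 SE (limma, adjusted p = 3.26e-09), and the batches gave −1.01 and −0.95.

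UHRF1 (chr19:4903080-4962154) had the largest fold change of the 10 genes over both batches and, in senescent cells, the lowest counts. In batch B alone EZH2 (−1.78) and UHRF1 (−1.76) were close on the log2 scale, and UHRF1 was at −2.44 in batch A. With a pseudocount of 8 in place of 1, UHRF1 was at −1.40 and EZH2 at −1.63. UHRF1 counted 58.9 and 99.3 in non-senescent samples of batch A and 17.5 to 30.3 in those of batch B. Senescent samples counted 12.7 and 13.9 in batch A and 3.64 to 9.96 in batch B, lower than all non-senescent samples of either batch. The log2 fold change came to −1.99 ± 0.29 SE (limma, adjusted p = 3.05e-05), or 3.96-fold. Senescent libraries held 3 to 31 reads of UHRF1 each, so the size of its change is less certain than that of EZH2 or DNMT1.

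DNMT3A and DNMT3B, which methylate new sites, gave no difference over both batches. DNMT3A (chr2:25227855-25342590, minus strand) changed on the log2 scale by 0.17 ± 0.11 SE (limma, adjusted p = 0.224), but its batches differed. In batch A it counted 199.5 and 220.1 in non-senescent and 312.2 and 328.2 in senescent samples, a log2 difference of 0.61. In batch B it counted 451.7 to 494.2 and 414.5 to 489.6, and the difference was −0.05. DNMT3A was the only one of the 10 genes whose response differed between batches by the interaction test (−0.66 ± 0.15 SE, limma, adjusted p = 0.0319), as 4.21% of tested genes did.

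DNMT3B (chr20:32762385-32809359) was the lowest of the 10 genes in non-senescent cells, with 5 to 40 reads per library. DNMT3B counted 18.2 ± 7.40 (SD, n = 6) in non-senescent and 18.4 ± 4.37 (SD, n = 6) in senescent samples. The groups overlapped and the log2 fold change came to 0.09 ± 0.30 SE (limma, adjusted p = 0.837). Its sign turned with the scaling (−0.01 with every library at the same total) and with the tool (−0.02 by edgeR), so it has no direction.

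TET1 (chr10:68560337-68694487), which oxidizes 5-methylcytosine, was lower in senescent cells but varied more with batch. It counted 32.6 and 33.4 in non-senescent and 22.9 and 24.2 in senescent samples of batch A, against 100.6 to 174.7 and 76.0 to 109.1 in batch B. Senescent samples lay below the non-senescent ones in batch A and overlapped them in batch B. The log2 fold change came to −0.62 ± 0.16 SE (limma, adjusted p = 0.00510), just past the fold limit. It fell under that limit in batch A alone (−0.47), without the non-senescent libraries B1 (−0.54) or B2 (−0.57), and without the senescent libraries B3 or B4 (both −0.58). The level of TET1 was higher in batch B by 1.92 on the log2 scale, the widest batch difference of the 10 genes. Its relatives TET2 (0.45 ± 0.16 SE, limma, adjusted p = 0.0336) and TET3 (−0.09 ± 0.19 SE, limma, adjusted p = 0.745) did not pass the limits, and were chosen for mention after their values were seen.

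**Figure D3:**
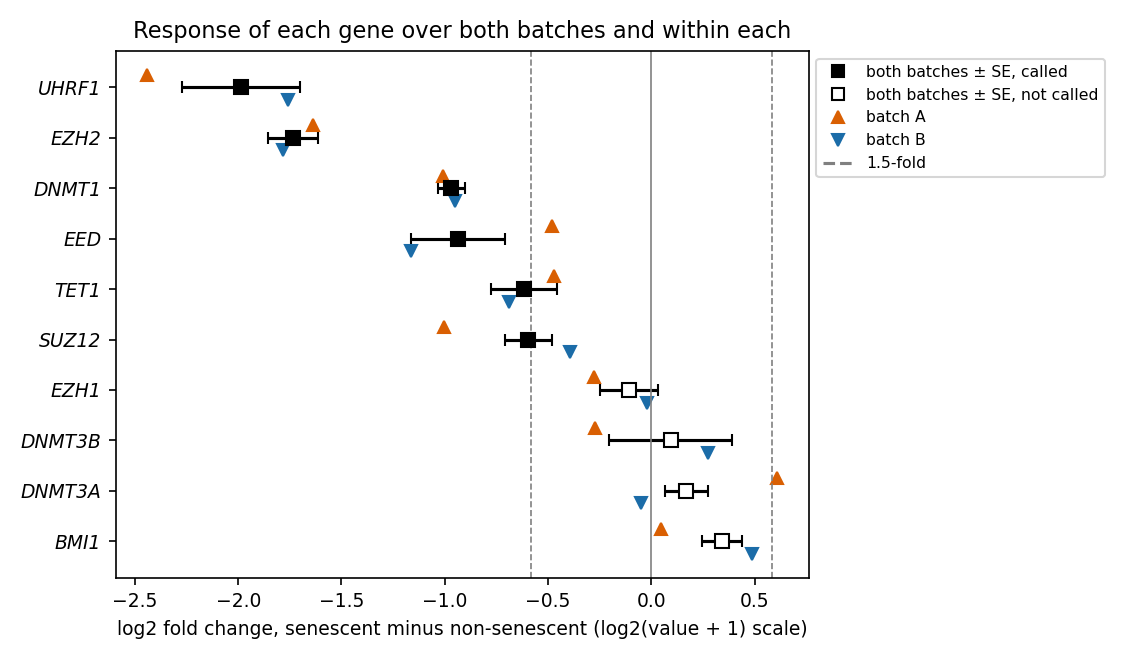
Log2 fold change, senescent minus non-senescent (x axis, on the log2(normalised read count + 1) scale), of the 10 genes ordered by their change, with squares for both batches ± SE (filled when called), triangles for each batch and dashed lines at 1.5-fold. UHRF1, EZH2 and DNMT1 are past 1.5-fold in both batches, SUZ12 and TET1 lie just past it over both, and DNMT3A has opposite signs in its batches.

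The partners of these genes were counted in 7 lists of genes by role. Of the accessory subunits of Polycomb repressive complex 2, 9 of 11 genes were tested, 1 was called, as lower (median log2 fold change −0.15), which is 11.1% against the 11.8% of all tested genes. The lower one was PHF19, which brings complex 2 to chromatin (161.6 against 45.96 normalised read counts, log2 fold change −1.86 ± 0.19 SE). The histone-binding subunit RBBP4, chosen after its values were seen, stayed under the fold limit at −0.56 ± 0.07 SE. The response differed between batches for AEBP2, LCOR and LCORL, also chosen after their values were seen.

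All 26 subunits of Polycomb repressive complex 1 were tested, and 4 were lower and 2 were higher (median 0.06). The share called in either direction was 23.1%, near the 23.4% of all tested genes, and 15.4% were lower. SCML1 (−1.59 ± 0.12 SE) and PCGF6, a subunit of a non-canonical form (−1.05 ± 0.28 SE), fell by the most, and CBX6, a reader of methylated H3K27, rose by 1.44 ± 0.10 SE on the log2 scale. PHC2 (−0.67), CBX2 (−0.61) and AUTS2 (0.88) also passed and were chosen after their values were seen. The catalytic subunits RNF2 (0.37) and RING1 (−0.30), chosen after their values were seen, did not pass. Of 8 deubiquitinase and H3K27 demethylase genes, only BAP1, the H2A deubiquitinase, was called (lower, −0.69 ± 0.12 SE), or 12.5% of the list.

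Several partners of DNMT1 and UHRF1 were lower too. Of 7 tested DNA methylation partners 4 were called, all lower, which is 57.1% against the 11.8% of all tested genes, and the median was −1.46. PCNA, the replication clamp that binds DNMT1, fell from 781.2 to 187.8 normalised read counts (−2.08 ± 0.08 SE). CDCA7L (−1.96 ± 0.18 SE) and CDCA7 (−1.88 ± 0.39 SE) fell too, though CDCA7 stood at −0.47 in batch A and −2.59 in batch B. HELLS, the chromatin remodeller that CDCA7 recruits, also fell (−1.46 ± 0.09 SE, chosen after its values were seen). HELLS stood at −1.58 in batch A and −1.40 in batch B. PCNA is also 1 of the 6 genes of the proliferation list given above.

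Readers of methyl-CpG were called in both directions, at 37.5% of the list against the 23.4% of all tested genes. Of 8 readers, ZBTB4 (0.70 ± 0.14 SE) and ZBTB38 (0.92 ± 0.24 SE, chosen after its values were seen) were higher and MBD4, a DNA glycosylase, was lower (−0.59 ± 0.10 SE). Among 10 tested demethylation genes only NEIL3, a DNA glycosylase chosen after its values were seen, passed (10% of the list), falling from 25.05 to 2.61 normalised read counts. Of 14 H3K9 methylation genes 4 were lower (28.6%, against 11.8% of all tested genes) and 1 was higher. The methyltransferase SUV39H1 fell by 1.32 ± 0.17 SE on the log2 scale and the heterochromatin protein CBX3 by 0.81 ± 0.08, while the remodeller ATRX rose by 0.83 ± 0.10. CBX5 (−0.72) and SUV39H2 (−0.69), chosen after their values were seen, were lower too.

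**Figure D4:**
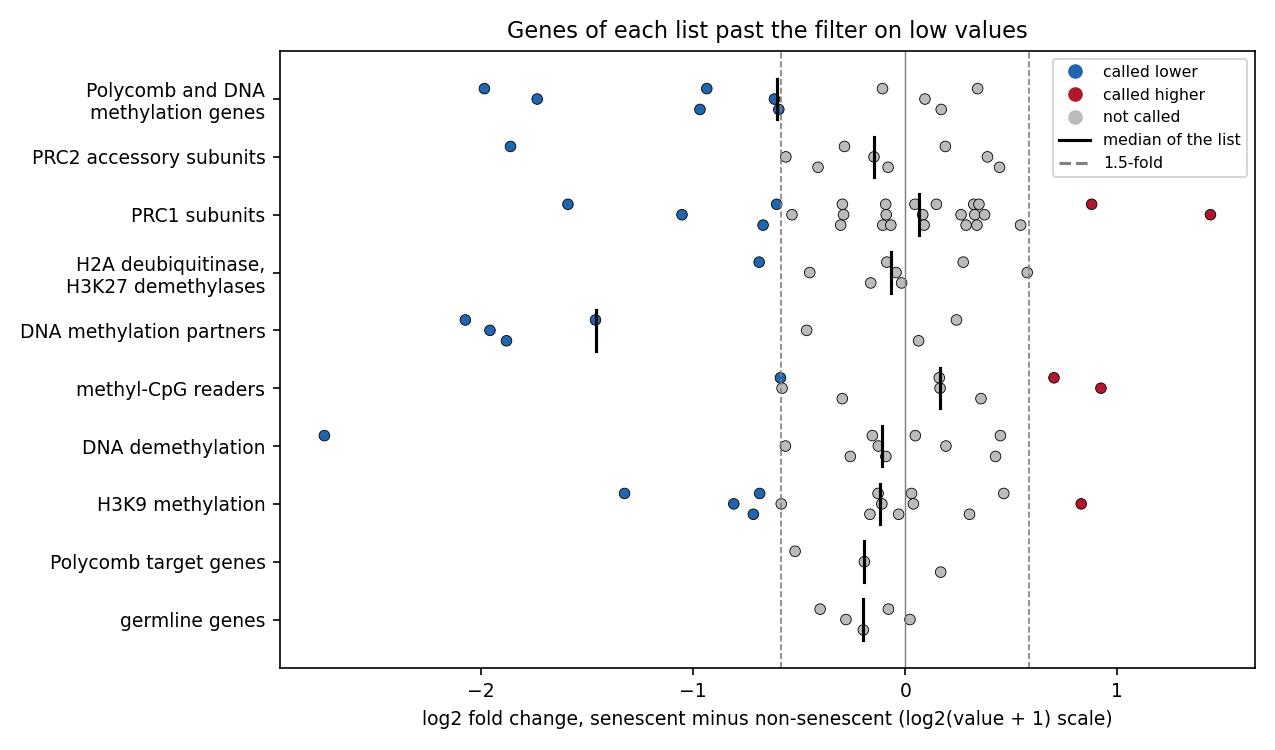
Log2 fold change, senescent minus non-senescent (x axis), of each tested gene in the 10 examined genes and the 9 lists (rows), with blue points called lower, red points called higher, grey points not called, black bars for the median of a list and dashed lines at 1.5-fold. The DNA methylation partners have the lowest median, −1.46, and no gene of the Polycomb target or germline list is called.

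Genes that these systems normally keep silent were examined next. Of 54 Polycomb target genes, all 39 HOX genes of the table among them, 51 were under the filter and 26 had 0 reads in all libraries. Summed HOX levels were 1.25 to 4.07 ppm of the reads in non-senescent and 0.161 to 2.92 in senescent samples, and no HOX gene had more than 12 reads in a library. Of the 3 tested targets 0 were called by limma, edgeR or DESeq2, and 1 was lower at an unadjusted p under 0.05. CDKN2A, whose locus Polycomb can silence in dividing cells, was not silent in these cells, with 3550 to 8286 normalised read counts in non-senescent samples. It was at 6288 against 4247 normalised read counts (−0.52 ± 0.07 SE, limma, adjusted p = 1.60e-05), under the fold limit. The study reports that p16 protein, by contrast, rose after CreER activation, with levels that varied between cells. Gene-level reads do not separate the p16 and p14ARF transcripts of CDKN2A. CDKN2B (−0.19) and GATA4 (0.17), chosen after their values were seen, did not pass.

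Germline genes, which promoter DNA methylation silences in somatic cells, were also low. Of 30 such genes, 25 were under the filter, 12 had 0 reads in all libraries, and 0 of the 5 tested genes were called by limma, edgeR or DESeq2 or had an unadjusted p under 0.05. Their summed level was 13.8 to 32.0 ppm of the reads in non-senescent and 10.5 to 28.7 in senescent samples. SYCP1, a protein of the meiotic synaptonemal complex, was the highest of them, at 86.8 against 78.55 normalised read counts (−0.20 ± 0.22 SE, limma, adjusted p = 0.518). Without the filter, limma called 0 of the 18 germline genes and 0 of the 28 Polycomb targets with reads, and at an unadjusted p under 0.05 it gave 0 and 1. Counting error allows up to 3 reads where a library shows none, so small rises of such genes were not detectable at this depth.

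After subtraction of each batch's mean, the 12 samples were used to find the genes whose log2 levels followed each gene most closely by Pearson r, given as a description over points that share batches and groups. PATL1 (0.994), RRM1 and TACC3 (both 0.992) were closest to EZH2. TMEM97, CDCA8 (both 0.995) and MCM3 (0.993) were closest to DNMT1, and EIF4EBP2 (0.977), RRP36 (0.976) and C2CD4B (0.972) to UHRF1. SUZ12 was closest to SCARB2 (0.971), CENPH (0.970) and OLIG1 (0.967). EED lay nearest to RCN2 (0.957), BRPF1 (0.954) and SH3PXD2B (0.950), and TET1 to MDFIC (0.958), SLC12A2 (0.951) and SIMC1 (0.946). For the genes without a call the closest were PHLDB2 (0.952), IMPAD1 (0.950) and STX16 (0.939) for BMI1 and FOS (0.955), DNAJC25-GNG10 (0.940) and RPL3P4 (0.934) for DNMT3A. Those for EZH1 were PPP1R26 (0.901), DDX31 (0.866) and NT5C2 (0.862), and those for DNMT3B were IQCG (0.900), BPGM (0.877) and TBCD (0.866).

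By the same measure, r with MKI67 was 0.985 for DNMT1, 0.961 for EZH2, 0.944 for UHRF1, 0.909 for SUZ12, 0.784 for TET1 and 0.721 for EED. EZH1 (0.285) and DNMT3B (−0.038) lay near 0, while DNMT3A (−0.581) and BMI1 (−0.647) ran the opposite way. Among the examined genes themselves, EZH2 and DNMT1 were most alike (0.971), followed by DNMT1 and UHRF1 (0.958). These values are set largely by the difference between the groups.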

How the data were processed

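Poly(A) RNA of 12 EndoC-βH3 samples was sequenced by CEL-seq2. Per the study's methods and processing notes, the authors used Cutadapt for trimming, Salmon 0.13.1 with GRCh38 for quantification and DESeq2 for normalisation. The handling of molecular identifiers is not given in the sources used here. The deposited signal per sample is a read number divided by 1 size factor, called the normalised read count, and 100% of 196021 values above 0 were whole reads after division by the step of their column (tolerance 0.0001 of a read), so whole reads were recovered. The authors also deposited their own mean level, log2 fold change with its error, test score and p-values, which were not used.

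limma 3.58.1 in R 4.3.3 was fitted with intensity trend to log2(normalised read count + 1) of 13847 genes with a mean of at least 5, with batch (the letter in the sample names) and group as terms. The pseudocount understates changes of low genes. A call needed a fold over 1.5 and a p under 0.1 after Benjamini-Hochberg adjustment over all genes. A difference of the response between batches (interaction term) was called under the same adjusted limit. edgeR 4.0.16 and DESeq2 1.42.0 on recovered reads, other scalings, filters, pseudocounts, designs and left-out libraries were alternatives, and the fit was tested on simulated data. All 170 genes of the 9 lists were matched by symbol. From each list the text names up to 3 called genes with the largest change among those with a mean of at least 20 and groups that do not overlap in either batch, or, in a list without a called gene, its highest tested gene. It also names the 3 genes most alike each of the 10 genes, and MKI67, CDKN1A and TERT. The 10 genes and the lists were chosen with earlier results of these data known. Values of pseudogenes such as RPL3P4 are uncertain, since Salmon shares reads out among near-identical transcripts. Pairs of libraries of 1 group and batch differed by more than sampling noise (chi-square per degree of freedom of 4.14 or more).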

Additional observations from a re-analysis of the deposited data

Results flagged for a closer look

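The response to senescence differed between batches by the interaction test of limma for 13 of 84 tested genes checked here. Differences are given as the log2 change of batch B less that of batch A. Of all tested genes 4.21% passed this test, but some of the 84 were chosen because their response differed. The 2 shares therefore cannot be compared. DNMT3A differed by −0.66 (adjusted p = 0.0319), rising by 0.61 in batch A and standing at −0.05 in batch B. FOS, the gene most alike DNMT3A, differed by −2.13 (adjusted p = 8.99e-07), being 2.04 (A) and −0.09 (B). CDKN2A differed by −0.38 (adjusted p = 0.0709), being −0.26 (A) and −0.65 (B). SCARB2 and OLIG1, both alike SUZ12, differed by 0.46 (adjusted p = 0.0406) and 0.92 (adjusted p = 0.0521), as both were lowered more in batch A, by −0.78 and −1.5, than in batch B, by −0.32 and −0.58. MKI67 differed by 0.94 (adjusted p = 0.0220), being −3.45 (A) and −2.51 (B). CDKN1A differed by 2.60 (adjusted p = 0.00191), being 2.18 (A) and 4.78 (B). Of the accessory subunits of complex 2, AEBP2 differed by 1.01 (adjusted p = 0.0573), LCOR by 0.75 (adjusted p = 0.0289) and LCORL by 0.85 (adjusted p = 0.0444). Of the cell type markers among the 84 genes, GCG differed by 1.59 (adjusted p = 6.81e-06), TTR by 0.89 (adjusted p = 0.00425) and SST by 0.89 (adjusted p = 0.000747). Markers outside the 84 also passed this test, and are given because their response differed. These were IRX2 (0.38 in A, −0.87 in B), SLC30A8 (−0.63 in A, 0.08 in B), NKX6-1 (0.11 in A, −0.61 in B) and PCSK1 (−1.55 in A, −0.81 in B). TOP2A and MCM2 of the proliferation list passed it too. AEBP2, LCOR and LCORL were chosen because their response differed. Batches also differ in depth and number of samples, and the cause was not tested.

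The senescent library B1 stood apart for BRPF1, at 87.3 normalised read counts against 137 to 157 in the other 5 senescent samples. Of 168 groups checked for such gaps this was 1. Each group mixes libraries of batches A and B, and whether chance gives such a gap was not tested.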

How the results depend on the processing

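EZH2 (−1.84 to −1.63), DNMT1 (−1.07 to −0.94) and UHRF1 (−2.44 to −1.40) kept their call under all 27 alternatives, and EZH1 and BMI1 stayed uncalled. EED lost its call in batch A alone, TET1 in 7 alternatives and SUZ12 in 8, in which the fold passed under 1.5 or, without the batch term, the adjusted p rose to 0.542 and 0.121 by limma. The number of the 10 genes called lower was 4 with a pseudocount of 8, without the batch term and in batch A alone, and 5 to 6 with single libraries left out. In batch A alone 1 gene was higher, DNMT3A, which turned to −0.0493 in batch B alone. DNMT3B turned to −0.00744 at the same total, −0.273 in batch A alone, −0.0402 with array weights, −0.0163 by edgeR and −0.0262 by DESeq2, ranged from −0.128 to 0.253 with single libraries left out, and had no value with a filter of 20. By adjusted p alone, 3087 genes were lower, 3214 were higher and 1 of the 10 genes, BMI1, was higher, and without the batch term 1037 genes were higher. With every library at the same total 2 accessory subunits, 2 methyl-CpG readers, 2 demethylation genes and 1 Polycomb target were lower, and with a pseudocount of 8 no reader (0) was. With single libraries left out these were 1 to 2 accessory subunits (2 without the senescent library A1), 0 to 2 readers (2 without senescent A1 or A2 or non-senescent A2, 0 without senescent B1, B2 or B4 or non-senescent B1 or B4) and 1 to 2 demethylation genes (2 without senescent A1, A2 or B4 or non-senescent A1, A2 or B3). Between 0 and 1 deubiquitinase and demethylase genes were higher (1 without A1, A2 or B2 of either group). The response of 2 of the 10 genes differed between batches at the same total and with a filter of 20, where SUZ12 joined DNMT3A. With the replicate block 6 of the 10 genes, and 1620 lower and 1591 higher genes, were called, and it changed no call of the 10 genes. Samples of the same name did not deviate together (r −0.0508 to 0.0164), which gives no sign of pairing by name. It cannot show whether same-named samples were paired in the experiment, and with 2 samples per group in batch A, A1 and A2 had to give the same r. Where a call was lost, the cause was not tested. Depth limits UHRF1, DNMT3B and the silent genes most.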
